A study of Homo sapiens with 22 samples.

Results

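Of the 59087 gene names counted in HUDEP-2 cells, 10 belong to the granules and the IgE receptor of mast cells and eosinophils: CPA3, TPSB2, TPSAB1, HDC, MS4A2, FCER1A, SRGN, EPX, PRG2 and CLC. They were taken as a named list, all 10 were found in both count tables, and each was read in every library. The list was drawn up with results of both experiments known. Calls in the H2A.X experiment are therefore given as descriptions, and p-values are printed for the BAZ1B experiment, which are not independent of that choice either. TPSB2 and TPSAB1 encode the main tryptases of mast cells.

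HUDEP-2 is an immortalized human line of erythroid progenitors that divides in expansion medium and matures toward erythroblasts once moved to differentiation medium. Expansion medium held stem cell factor, erythropoietin, dexamethasone and doxycycline; for maturation dexamethasone was left out, and plasma, heparin, transferrin and insulin were added to the other factors. RNA-Seq was performed on WT and knockout (KO) cells at D0, in expansion, and at D6 of maturation, in an experiment on the histone variant H2A.X and another on BAZ1B, the kinase that phosphorylates tyrosine 142 of that histone. On each day the H2A.X experiment held libraries of 2 WT and 3 H2A.X KO replicates. The BAZ1B experiment held 3 of each genotype, which makes 22 libraries in all. KO cells had been cut with CRISPR/Cas9 and a pair of lentiviral guides and grown from single cells, so each KO replicate is a subclone, and a difference between KO and WT is also a difference between small numbers of clones. H2A.X KO removed the coding region, whereas BAZ1B KO removed the start of the gene with its first exon. The paper speaks of WT subclones as well, handled in the same way as its KO lines. The labels do not say how the WT replicates relate to each other, and p-values measure the spread between these samples.

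Mast cells store tryptase and carboxypeptidase A bound to serglycin in their granules, together with histamine, and release them when IgE held by the high-affinity receptor is crosslinked. Eosinophil granules hold a peroxidase and the basic protein encoded by PRG2. Both lineages share early progenitors and the factor GATA2 with the erythroid lineage, and KIT, the receptor for stem cell factor, is used by dividing erythroid progenitors and by mast cells.

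TPSB2 and TPSAB1 need to be read together, because their transcripts are nearly the same. Both lie on chromosome 16 of GRCh38 (GENCODE 44), TPSB2 at 1227272 to 1230184 on the minus strand and TPSAB1 at 1240379 to 1242554 on the plus strand, each with 6 exons. Their coding sequences of 825 bases were 99.5% identical and differed at 4 bases. All 4 fall in exonic coding bases 96 to 158, counted from the first base of the start codon, and are in capitals in the following stretches of the reference transcripts.
TPSAB1: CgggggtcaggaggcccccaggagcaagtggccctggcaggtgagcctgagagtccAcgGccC
TPSB2: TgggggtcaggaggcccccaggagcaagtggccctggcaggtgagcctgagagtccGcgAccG
Of the 75-base windows of the TPSAB1 transcript, 65% also occur in TPSB2, and of the 100-base windows 59.5% do. A read from such a window cannot be assigned, so the split between these genes is uncertain and their summed count is given wherever a result turns on tryptase.

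Promoter sequences in RefSeq (GRCh38.p14) matched 5 of the 10 genes by symbol, namely CPA3, MS4A2, FCER1A, HDC and CLC. GATA factors bind variants of the letters GATA, and GATAAG was searched on both strands (CTTATC on the other) in the 250 bases before each start. CPA3 held it 172 and 44 bases before its start, and MS4A2 held it once, on the other strand, 55 bases before. In GENCODE 44 MS4A2 starts further upstream, at 60088261, so that match lies inside the gene as annotated there. FCER1A, HDC and CLC had no such match, and 5.65% of 35116 promoters had at least 1. The letters AGATAA, which overlap GATAAG by 5 bases and occurred in 9.17% of promoters, were also found in FCER1A and CLC. The sequence before the CPA3 start, chr3:148865046-148865295 on the plus strand, and 30 bases around the MS4A2 match, chr11:60088597-60088626 on the plus strand, are shown because both genes held a match and were among the members that differed most between groups. Capitals mark the match.
CPA3: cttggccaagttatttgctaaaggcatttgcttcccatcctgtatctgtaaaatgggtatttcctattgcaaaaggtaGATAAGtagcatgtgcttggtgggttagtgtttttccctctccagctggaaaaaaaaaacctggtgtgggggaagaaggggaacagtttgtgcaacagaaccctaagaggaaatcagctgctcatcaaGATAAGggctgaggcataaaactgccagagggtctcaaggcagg
MS4A2: tcagccaagaaaCTTATCtgtctggcaaat

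Levels are given as CPM, the count scaled to the library's effective total, which edgeR sets within each experiment. Library totals ran from 11910141 to 21013004 counts in the H2A.X experiment and from 33199408 to 41273244 in the BAZ1B experiment. H2AFX, the gene of H2A.X, had 19.0 to 44.8 CPM in the KO libraries at D0 and 89.7 to 112 CPM in WT. BAZ1B had 174 to 222 CPM in BAZ1B KO and 258 to 264 CPM in WT at D0, where the exons left in place still yield reads. In the H2A.X experiment at D0 BAZ1B had 81.7 to 122 CPM in WT, below every BAZ1B KO library, and 227 to 237 CPM in KO. The H2A.X WT libraries stood apart at D0. The summed level of 11 erythroid markers, among them the globins and ALAS2, was 23822 to 32946 CPM in them, 12049 to 16139 CPM in H2A.X KO and 6434 to 8062 CPM over both BAZ1B genotypes. The column names of all 3 H2A.X KO libraries at D0, and of 2 of 3 at D6, carry the word "Redo" and those of WT do not. What was redone is not stated, and it cannot be told apart from the genotype at D0.

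In proliferating cells the tryptases were by far the most abundant members. Per kilobase of exon, BAZ1B WT at D0 had a mean TPSB2 level of 162 CPM (155.7 to 166 over 3 libraries) and a TPSAB1 level of 117 CPM (109.8 to 124). EPX followed at 6.36 CPM per kilobase and SRGN at 5.58, with overlapping libraries (5.15 to 8.66 and 4.86 to 6.48). CPA3 came next at 2.18, MS4A2 at 0.814, PRG2 at 0.231 and HDC, the enzyme that makes histamine, at 0.0120, and libraries of neighbouring genes in this part of the order did not overlap. CLC, the galectin of Charcot-Leyden crystals, had no read in any WT library of either experiment, nor had FCER1A, the IgE-binding chain of the receptor. In H2A.X KO at D0 the order below the tryptases was CPA3 at 6.06 CPM per kilobase, MS4A2 at 4.82, SRGN at 4.54 and EPX at 3.05, and each of these overlapped its neighbour in the libraries.

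The members were thus present in part. HDC had at most 6 reads in any library, CLC 1 read in 1 library (BAZ1B KO at D6), and FCER1A at most 1. Other defining genes were also missing: CMA1, the chymase of connective tissue mast cells, and CCR3 and RNASE3 of eosinophils had no read in any library. Of 9 mast cell markers, among them 5 members, KIT and HPGDS, those at or under 3 reads a library at D0 were 5 in H2A.X WT, 1 in H2A.X KO and 2 in either BAZ1B genotype. Of 8 eosinophil and basophil markers they were 6, 5 and 4 to 5. Most mast cell markers were thus read in H2A.X KO and in the BAZ1B experiment. All 3 T cell markers were at or under 3 reads a library at D0. Of 7 neutrophil and monocyte markers, 6 were so in H2A.X WT, 3 in H2A.X KO and 2 in either BAZ1B genotype. That list's sum reached 1.38 CPM in H2A.X WT, 2.64 in H2A.X KO and 7.42 in BAZ1B WT at D0, so the order of the groups was not particular to the mast cell list. In bulk RNA, fewer cells that express such a gene and less RNA per cell cannot be told apart. After the filter on low counts, 6 members could be fitted in the H2A.X experiment (CPA3, EPX, TPSB2, TPSAB1, MS4A2 and SRGN) and 7 in the BAZ1B experiment, where PRG2 passed as well.

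**Figure D1:**
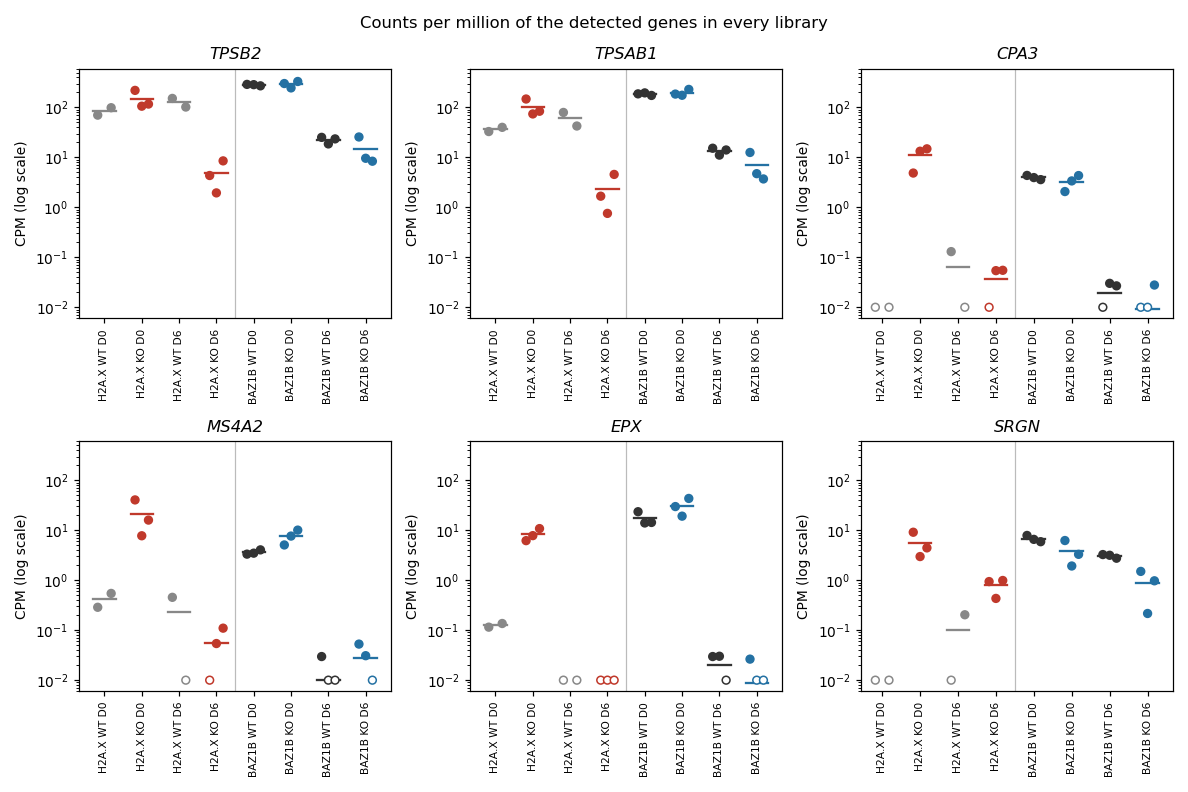
CPM (log scale) of 6 members in each library, with 1 point per library and a bar at the group mean; open points at the bottom are libraries with no read. The H2A.X KO libraries at D0 lie above the WT libraries for all 6 genes, and the BAZ1B libraries at D0 lie above the H2A.X WT libraries for CPA3, EPX and SRGN.

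The question of the H2A.X comparison was which transcripts differ in cells without this histone. At D0 the 3 KO libraries lay above both WT libraries for all 6 fitted members. Across all 13236 genes 36.1% were higher in KO without overlap, and CPA3, EPX, MS4A2 and SRGN passed the filter through KO libraries alone, so nothing is read from that count.

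CPA3, the mast cell carboxypeptidase, had no read in the 2 H2A.X WT libraries at D0 and 101, 272 and 317 reads in KO replicates 1, 2 and 3. That is 11.0 CPM ± 5.37 (SD, n = 3) in KO, at least 58.3-fold higher than a floor of 3 reads per library in WT. TPSB2 had 1219 and 1450 reads in WT and 4560, 2168 and 2496 in KO. TPSAB1 had 572 and 587 reads in WT and 3064, 1516 and 1793 in KO. The tryptases were thus already present in WT, and KO differed by less than in the case of CPA3. Their summed level was 121 CPM ± 25.2 (SD, n = 2) in WT and 249 CPM ± 102 (n = 3) in KO, where replicate 1 alone reached 367 CPM. The share of the sum assigned to TPSAB1 lay at 28.8% and 31.9% in WT. In KO it was 40.2% to 41.8%, with the uncertainty of assignment given for this pair.

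MS4A2 encodes the beta chain of the IgE receptor, which amplifies its signal. It had 5 and 8 reads in WT and 843, 159 and 342 in KO, a ratio of means of 51.5. FCER1A, the chain that binds IgE, had none in these 5 libraries, and FCER1G, the gamma chain, stayed between 0 and 0.115 CPM. A transcript of only 1 of the receptor's chains was thus seen in number.

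SRGN encodes the serglycin core protein to which the granule proteases are bound. It had no read in WT and 190, 61 and 95 in KO, at least 29.3-fold above the floor of 3 reads per library. EPX, the eosinophil peroxidase, had 2 reads in each WT library and 129, 160 and 231 in KO, a ratio of 66.6 with a 95% counting interval of 25.8 to 245. PRG2, the eosinophil major basic protein, had 3 and 6 reads in WT and 12, 10 and 3 in KO, which overlap. The KO subclones ranked differently by gene: replicate 1 was highest for MS4A2, SRGN and both tryptases and lowest for CPA3 and EPX.

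Calls between KO and WT were made at a strict limit, an adjusted p under 0.001 with a log2 fold change beyond 1.5 either way. The study's methods set its p limit on the p-value without saying that it was adjusted, so counts are also given at a looser limit, an unadjusted p under 0.001 with an adjusted p under 0.05 and the same fold change. At the strict limit none of the 6 members was called at D0 in the H2A.X experiment by edgeR, against 0.166% of all genes. At the looser limit CPA3, EPX, MS4A2 and SRGN were called, against 3.88% of all genes. With DESeq2 the same 4 genes met the strict limit, among 630 genes in all. As the list is taken to be chosen from this contrast, these counts are descriptions.

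By D6 the picture in the H2A.X experiment had turned for tryptase. TPSB2 had 2331 and 1000 reads in WT and 83, 36 and 155 in KO, and TPSAB1 had 1221 and 417 in WT and 32, 14 and 83 in KO. Their summed level was 188 CPM ± 61.3 (SD, n = 2) in WT and 7.27 CPM ± 5.30 (n = 3) in KO, without overlap, and 32.3% of all genes were lower in KO in that way. The ratio of means was 25.7 for TPSB2 and 26.1 for TPSAB1, both lower in KO. SRGN had 0 and 2 reads in WT and 18, 8 and 18 in KO, a ratio of 9.93 with a 95% counting interval of 2.59 to 84.6. CPA3 had at most 2 reads and EPX none in any library of that day, and MS4A2 had 7 and 0 in WT and at most 2 in KO. At the strict limit none of the 6 was called, against 0.151% of all genes, and at the looser limit TPSB2 and TPSAB1 were called lower in KO, against 5.53% of all genes.

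The genotypes of the H2A.X experiment thus differed in what happened between the days. In KO, the fitted members' counts at D6 were below those at D0. Those of PRG2, which was not fitted, overlapped, at 12, 10 and 3 reads at D0 and 1, 5 and 4 at D6. CPA3 went from 690 reads over 3 libraries to 2, a ratio of 308 (95% counting interval 84.8 to 2545), and MS4A2 from 1344 to 3, a ratio of 399 (136 to 1939). EPX was at 0 at D6, at least 51.3-fold lower. TPSB2 was 29.9-fold, TPSAB1 43.7-fold and SRGN 7.01-fold lower. In WT the summed tryptase level was 103 and 139 CPM at D0 and 231 and 144 CPM at D6, so that tryptase was no lower at D6 in either WT replicate. CPA3, EPX and MS4A2 passed the filter through KO libraries at D0 alone and so had to be lower at D6 in KO, and no count of calls between days is given. As a description, the change between days differed between KO and WT at an adjusted p below 0.05 for TPSB2 and TPSAB1, as for 1.34% of all genes, and for neither once either WT library at D0 was left out; with a term for the subclone, CPA3 and MS4A2 joined them.

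**Figure D2:**
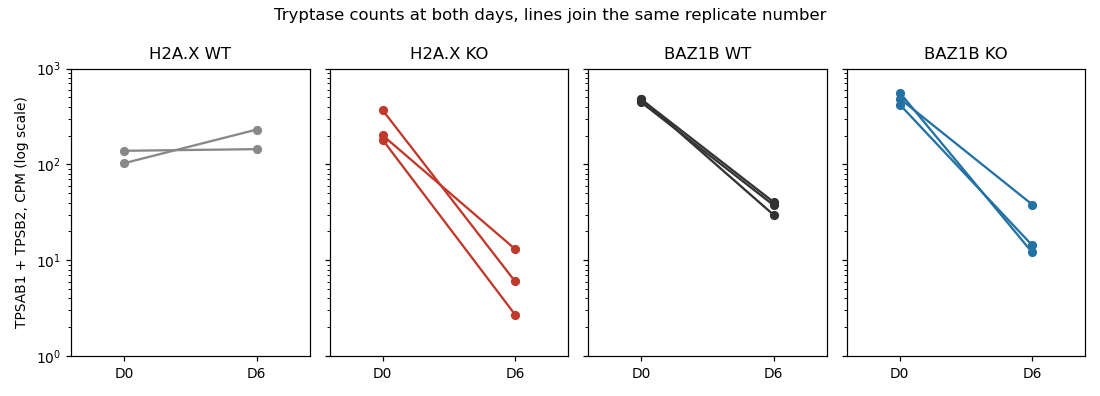
Summed TPSAB1 and TPSB2 counts in CPM (log scale) at D0 and D6 in each genotype of both experiments; lines join libraries with the same replicate number. The sum lies at 103 to 231 CPM on both days in H2A.X WT and is under 41 CPM at D6 in each of the other 3 genotypes, from 180 CPM or more at D0.

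The BAZ1B experiment gives the same members in cells from another set of libraries, sequenced more deeply. WT cells had all the abundant members at D0, and their counts fell by D6 in both genotypes. The summed tryptase level was 467 CPM ± 20.0 (SD, n = 3) at D0 and 35.9 CPM ± 5.55 (n = 3) at D6 in WT, and 489 CPM ± 69.5 at D0 and 21.5 CPM ± 14.5 at D6 in KO (n = 3 each).

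In WT, TPSB2 had 11892, 12462 and 11537 reads at D0 and 848, 618 and 875 at D6, a change of -3.65 on the log2 scale (SE 0.297, adjusted p = 1.77e-07). TPSAB1 had 7688, 8527 and 7412 reads at D0 and 514, 369 and 525 at D6, and its log2 fold change was -3.78 (SE 0.275, adjusted p = 6.23e-08). In KO, TPSB2 fell by 4.32 (SE 0.310) and TPSAB1 fell by 4.79 (SE 0.297) on the log2 scale, with adjusted p = 5.68e-08 and 1.42e-08. The tryptases passed the filter through libraries of both days.

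CPA3, EPX, MS4A2 and PRG2 passed it through D0 libraries alone and so had to be lower at D6. CPA3 had 179, 172 and 153 reads in WT at D0 and 2 in all at D6, a ratio of 206 (95% counting interval 56.8 to 1707). EPX had 968, 611 and 612 reads and then 2 in all, a ratio of 896 (248 to 7404). MS4A2 had 137, 152 and 173 reads and then 1, a ratio of 378 (67.5 to 14958). The loss was of the same kind in KO, where CPA3, EPX and MS4A2 together kept 5 reads at D6 over the 3 libraries. PRG2 had 24, 13 and 17 reads in WT at D0 and 4, 6 and 3 at D6, a 3.37-fold fall, and fell 10.6-fold in KO.

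SRGN kept more of its reads. In WT it had 324, 287 and 252 at D0 and 110, 105 and 103 at D6, a change of -1.15 on the log2 scale (SE 0.424, adjusted p = 0.0282). In KO it had 238, 77 and 116 at D0 and 57, 7 and 35 at D6 (-2.06, SE 0.482, adjusted p = 0.00204). The call in WT was lost with DESeq2 (adjusted p = 0.0653) and when any of 5 of the 6 WT libraries was left out. TPSB2, TPSAB1 and SRGN, which passed the filter through libraries of both days, were thus lower at D6 in both genotypes, as were 35.4% of all genes in WT and 34.5% in KO.

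Between BAZ1B KO and WT the differences were small at D0. TPSB2 had 11482, 9823 and 11613 reads in KO and TPSAB1 7062, 7000 and 8061, within the WT range or close to it; the log2 fold changes were 0.05 (95% interval -0.45 to 0.55) and 0.08 (-0.37 to 0.54). CPA3 had 79, 135 and 152 reads in KO against 153 to 179 in WT, a log2 fold change of -0.28 (adjusted p = 0.662). EPX had 1139, 766 and 1524 reads in KO, overlapping WT, at 0.83 on the log2 scale (SE 0.258, adjusted p = 0.109).

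PRG2 and MS4A2 were the members with the smallest adjusted p at D0. PRG2 had 33, 61 and 44 reads in KO against 24, 13 and 17 in WT (log2 fold change 1.51, SE 0.312, adjusted p = 0.0161). It shares 791 exonic bases with a readthrough gene on the same strand, so part of its reads may not be its own. MS4A2 had 194, 306 and 354 reads in KO against 137, 152 and 173 in WT (1.07, SE 0.251, adjusted p = 0.0325). Both were above WT in 3 of 3 KO libraries without overlap, as 9.76% of all genes were, and at an adjusted p that 3.88% of all genes had below 0.05. At the strict limit none of the 7 members was called, against 0.36% of all genes. PRG2 met the looser limit, just past its fold change, against 1.09% of all genes.

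At D6 the member with the smallest adjusted p was SRGN, at 57, 7 and 35 reads in KO against 110, 105 and 103 in WT (log2 fold change -1.74, SE 0.487, adjusted p = 0.0335; 12.8% of all genes were below 0.05). At D0 its KO libraries overlapped WT (-0.83, SE 0.416, adjusted p = 0.370). The difference between its KO effects was -0.91 (adjusted p = 0.534), and -0.96 with an adjusted p of 0.0495 once a term for the subclone was added. The tryptases split by subclone at D6: KO replicate 1 had 972 TPSB2 and 476 TPSAB1 reads, as in WT, while replicates 2 and 3 had 311 and 301 TPSB2 reads and 153 and 133 TPSAB1 reads. The log2 fold changes were -0.61 (adjusted p = 0.239) for TPSB2 and -0.93 (adjusted p = 0.0795) for TPSAB1, and without KO replicate 1 TPSAB1 was at -1.68 and met the strict limit. With all libraries none of the 7 met the strict limit, against 0.749% of all genes, or the looser one, against 1.27%, and 0 of 7 had a KO effect that differed between the days, against 2.47%.

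**Figure D3:**
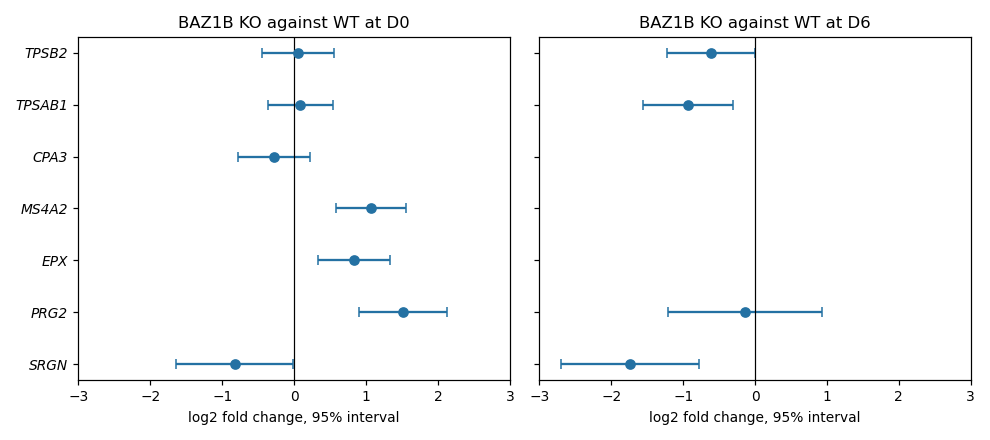
Log2 fold change of BAZ1B KO against WT at D0 (left, 7 members) and D6 (right, the 4 members with more than 3 reads in some library of that day), with 95% intervals from 3 libraries per group. At D0 the intervals of PRG2, MS4A2 and EPX (0.33 to 1.34) lie above 0 and that of SRGN (-1.64 to -0.01) lies below 0. At D6 that of SRGN lies lowest, at -2.69 to -0.78, and those of TPSAB1 (-1.55 to -0.30) and TPSB2 (-1.22 to -0.001) also lie below 0. The intervals are not adjusted for the number of genes and are narrower than those of the test itself. The quasi-likelihood test gave an unadjusted p of 0.0689 for SRGN at D0 and 0.0722 for TPSB2 at D6.

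Set beside each other on CPM, the WT cells of the experiments were unlike at D0. Nearness was taken from the log2 ratio of mean CPM, with means under 3 reads' worth of CPM raised to that value. On that scale BAZ1B WT was nearer to H2A.X KO than to H2A.X WT for 7 members, as it was for 72.6% of 13168 genes. These are the members whose mean lay above 3 reads' worth in at least 1 of these groups. On plain CPM, CPA3 and MS4A2 in BAZ1B WT were nearer to H2A.X WT. The libraries of PRG2 overlapped between all 3 groups. The scaling was done within each table, so these are values side by side with no test, and the experiment and the clones cannot be told apart. CPA3 stood at 0 in H2A.X WT, 11.0 CPM in H2A.X KO and 3.96 CPM in BAZ1B WT. EPX stood at 0.126, 8.28 and 17.3 CPM, and SRGN at 0, 5.52 and 6.79 CPM. MS4A2 was at 0.416, 21.5 and 3.63 CPM and the tryptase sum at 121, 249 and 467 CPM. CPA3, EPX, MS4A2 and SRGN were at least 8-fold higher in BAZ1B WT than in H2A.X WT without overlap, as were 2.27% of 11705 genes. For CPA3, EPX and SRGN the fold is a bound against a floor of 3 reads. A gene needed 1 CPM to enter that background. These genes were under 1 CPM in H2A.X WT and could not enter through it, so nothing is read from this count.

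With the BAZ1B genotypes pooled, the sums of erythroid markers and of tryptase ran in opposite orders by group at D0. Between the BAZ1B genotypes they did not. Erythroid sums at D0 were 7601 to 8062 CPM in BAZ1B KO and 6434 to 7190 CPM in BAZ1B WT. The tryptase sums of these genotypes overlapped, with means of 489 CPM in KO and 467 CPM in WT. Over the 22 libraries, the BAZ1B libraries at D0 had the lowest erythroid sums, 6434 to 8062 CPM, and the highest tryptase sums, 421 to 560 CPM. H2A.X KO at D0 lay between, and H2A.X WT at D0 had the highest erythroid sums of that day with the lowest tryptase sums. The H2A.X WT libraries at D6 departed from this order, with 37586 and 64009 CPM of erythroid markers and 231 and 144 CPM of tryptase. BAZ1B KO at D6 had lower erythroid sums than BAZ1B WT, at 32498 to 38421 CPM against 38542 to 44317 CPM. Its tryptase sums overlapped those of WT and also had the lower mean, 21.5 CPM against 35.9 CPM. The part of erythroid maturation in the members' levels was not tested. Of 5 megakaryocyte markers ITGA2B was the one with more than 3 reads a library at D0. That list's sum was 8.72 to 9.67 CPM in H2A.X WT and 32.7 to 75.7 CPM in H2A.X KO, with PF4 and PPBP at 0.

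**Figure D4:**
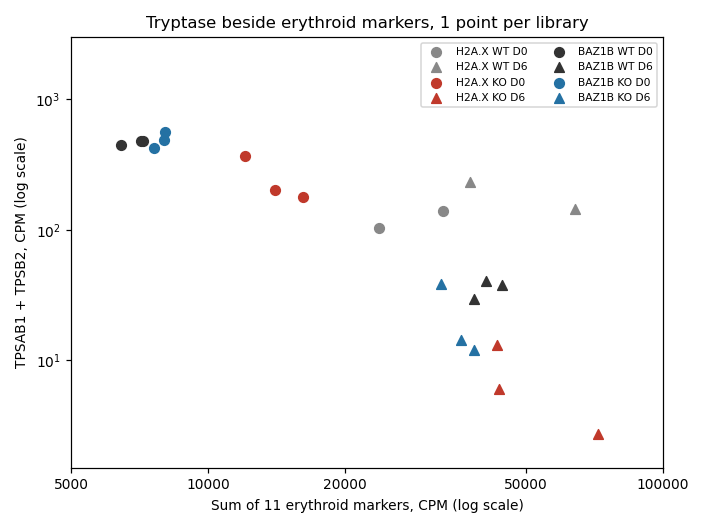
Summed TPSAB1 and TPSB2 CPM against the sum of 11 erythroid markers in CPM (log scales), with 1 point per library, circles for D0 and triangles for D6. BAZ1B libraries at D0 lie at upper left (421 to 560 CPM tryptase), and the H2A.X WT libraries at D6 (144 and 231 CPM) lie above every other library of that day.

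GATA2, MITF and KIT were, like the members, lower in H2A.X WT at D0 than in H2A.X KO and BAZ1B WT. KIT was at 238 CPM ± 60.9 (SD, n = 2) in H2A.X WT, 736 CPM ± 262 (n = 3) in H2A.X KO and 716 CPM ± 14.1 (n = 3) in BAZ1B WT at D0. GATA2 was at 66.1, 221 and 269 CPM, and MITF, the mast cell factor, at 13.4, 30.5 and 36.3 CPM. GATA1, which drives erythroid maturation, had the opposite order, at 314, 151 and 145 CPM. In BAZ1B WT GATA2 fell by 1.84 (SE 0.179), KIT by 2.12 (SE 0.161) and MITF by 0.74 (SE 0.0758) on the log2 scale by D6, and GATA1 rose by 1.18 (SE 0.0473). None of these 4 met either limit between BAZ1B KO and WT. Of all 14 transcription factors listed for these lineages, GATA1, GATA2 and MITF included, 8 fell and 5 rose by D6 in BAZ1B WT, and 10 had a positive and 4 a negative fold change in H2A.X KO at D0. Among those with a mean of 50 normalized counts or more, the largest falls were of CEBPA, a myeloid factor (-6.70, SE 0.393), IKZF2, an Ikaros family factor (-6.06, SE 0.159), and SPI1, the factor PU.1 (-4.30, SE 0.192). A factor that passed the filter through D0 libraries alone had to be lower at D6, which was not checked for this list.

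Other genes of these lineages and of granule function were read as whole lists, beside 35.4% of all genes that fell and 33.5% that rose by D6 in BAZ1B WT. A listed gene that passed the filter through D0 libraries alone had to be lower at D6. How many did so was not checked, so the counts and medians are descriptions. Of 21 other mast cell genes 13 could be fitted in the BAZ1B experiment, and 10 fell and 2 rose by D6 in WT, among them SIGLEC6, an inhibitory surface receptor (log2 fold change -4.01, SE 0.210), and TPSD1, a further tryptase (-3.63, SE 0.272). Of 13 genes of signalling from the IgE receptor 12 were fitted, with 9 lower and 2 higher, including LYN, the kinase that starts the signal (-2.01, SE 0.0766). Of 9 fitted granule release genes 7 fell and 2 rose, such as STX3, a membrane fusion protein (-3.80, SE 0.493). The 4 fitted eosinophil and basophil genes all fell, CSF2RB, the shared beta chain of the interleukin 5 receptor, by 4.33 (SE 0.178). Of 11 fitted genes that build glycosaminoglycan chains of the kind carried by serglycin, 3 fell and 2 rose. The remaining fitted proteases were split at 3 lower and 3 higher, with CTSS lowest at -4.95 (SE 0.253). The median log2 fold change was -2.12 for the mast cell list, -1.09 for signalling and -0.01 for chain synthesis, beside -0.02 for all genes.

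Between BAZ1B KO and WT these lists held few calls. At D0 none of their fitted genes met the strict limit, and at the looser one HPGDS, the prostaglandin D2 synthase, and IL5RA, the alpha chain of the interleukin 5 receptor, were lower in KO and CEBPE, a granulocyte factor, was higher. At D6 SIGLEC6 (log2 fold change -2.42, SE 0.357) and HPGDS were lower in KO at the strict limit, which makes 2 of 13 fitted mast cell genes beside 0.749% of all genes, and IL5RA at the looser one. SIGLEC6 was at 2.90 CPM ± 0.535 (SD, n = 3) in WT and 0.549 CPM ± 0.337 (n = 3) in KO. In the H2A.X experiment at D0, CTSS was the gene called from these lists at the strict limit, with 0.287 and 0.544 CPM in WT and 18.5 to 32.8 CPM in KO, and SIGLEC6 joined it at the looser one. Of the 14 transcription factors 3, GATA2 among them, were higher in KO at the looser limit, against 3.88% of all genes. At D6 and that limit, 3 of 11 fitted mast cell genes, 1 of 9 granule release genes and GATA2 were lower in KO, against 5.53% of all genes. These counts are descriptions.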

How the data were processed

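RNA-Seq counts of 22 HUDEP-2 libraries were used, 10 of the H2A.X and 12 of the BAZ1B experiment. The authors deposited raw counts per gene, with no normalization, after trimming with fastp, mapping of single-end reads to hg38 with STAR 2.7.0f and counting with Subread 1.6.4, versions per the submitters' processing notes. The labels name an unstranded library kit with longer reads and the study's methods a stranded kit with shorter ones. The strand setting of the counting is not given in the sources used here, so reads of overlapping genes may be mixed. The annotation used here is GENCODE 44, which matched 36434 of 59087 gene names directly and 759 by an older name.

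The tests ran in R 4.3.3, in edgeR 4.0.16 (filterByExpr with min.count 10 and min.total.count 15, which kept 13236 and 13879 genes, TMM factors, quasi-likelihood test, two-sided, Benjamini-Hochberg adjustment over all genes), with 1 coefficient per genotype and day in each experiment. Between KO and WT a call needed an adjusted p under 0.001 and a log2 fold change beyond 1.5; the limit on the unadjusted p, nearer to the wording of the study's methods, was added after seeing the data. Between days, and for the difference of the KO effects, an adjusted p under 0.05. Ratios against a group with at most 3 reads a library carry a 95% exact interval for counting error only; reads without molecular identifiers are not independent molecules. DESeq2 1.42.0 was an alternative. On simulated counts for H2A.X KO against WT at D0, 17 of 67 genes changed by a log2 fold of 1.5, the limit itself, and 59 of 67 changed by 2.5 were recovered, and 25 and 66 of 67 for BAZ1B. The changed genes were drawn from well-counted genes alone, from a baseline shared by all groups. These rates therefore do not describe members with few or no reads in WT.

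The members and the other gene lists were chosen with earlier results of these data known. Of the erythroid list, 1 marker is not reported here and is left out of its sums. Genes other than members are named if called and among the 4 largest changes of their list at a mean of 50 normalized counts or more, except GATA1, GATA2, MITF and KIT, named as known regulators, HPGDS, IL5RA and CEBPE, named after their values were seen because they complete small counts, and FCER1G, CMA1, CCR3, RNASE3, PF4, PPBP and ITGA2B, named as defining markers. For KO and WT libraries with the same replicate number, deviations had correlations of 0.10 to 0.23 in the H2A.X experiment and -0.12 to 0.22 in the BAZ1B experiment. Both days of a KO subclone ran from 0.11 to 0.55, and same-numbered WT libraries of both days from -0.04 to 0.55.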

Additional observations from a re-analysis of the deposited data

Results flagged for a closer look

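SRGN at D6 was the one result singled out, because KO stood on opposite sides of WT in the experiments. All 3 H2A.X KO libraries lay above both WT libraries, with a log2 fold change of 3.15, and all 3 BAZ1B KO libraries lay below the 3 WT libraries, with a log2 fold change of -1.74. In the H2A.X experiment SRGN passed the filter through KO libraries alone, so the higher side in KO was favoured in advance. The share of all genes apart in these ways is not given, so nothing is read from the separation. The difference between the experiments was not tested, since each table was normalized by itself, and the H2A.X side rests on 8 to 18 reads a library in KO and 0 and 2 reads in WT. Groups of 2 or 3 libraries are too small for a test of single deviating libraries.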

How the results depend on the processing

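No member changed direction under an alternative where it had been called, and upper-quartile factors, leaving out the globin genes, a fit of each day alone and a correction for transcript length and GC content moved no member across a threshold. Counts of members called between H2A.X KO and WT at D0 went from 0 to 4 with DESeq2, with no filter, at an adjusted p under 0.05 alone and at the looser limit on the unadjusted p, and to 1 with a replicate block, also when joined to the length and GC correction. At D6 they went from 0 to 2 with DESeq2, the replicate block and the looser limit, to 3 with no filter or at an adjusted p under 0.05, and ranged from 0 to 2 over single libraries left out, reaching 2 without KO replicate 3. For the difference of the H2A.X KO effects they went from 2 to 5 with DESeq2 and to 4 with no filter, with a block by subclone and with that block and the correction, and ranged from 0 to 2 over single libraries left out. In the BAZ1B experiment, KO against WT went from 0 to 1 with no filter and at the looser limit and 2 at an adjusted p under 0.05 at D0, and to 1 with no filter and at an adjusted p under 0.05 at D6, with a range of 0 to 1 over single libraries left out. For the difference of the KO effects it went from 0 to 3 with no filter and 1 with a block by subclone, and ranged from 0 to 2, reaching 2 without KO replicate 1 at D6. All genes called in the BAZ1B experiment moved as well. At D0 they went from 50 to 214 with no filter, 151 at the looser limit and 539 at an adjusted p under 0.05. At D6 they went from 104 to 252 with no filter and 1782 at that adjusted p. For the difference they went from 343 to 987 with no filter, 718 with the block and 385 without KO replicate 1 at D6. In the H2A.X experiment all genes called moved too. At D0 they went from 22 to 630 with DESeq2, 905 with no filter and 4651 at an adjusted p under 0.05. The looser limit gave 514, the replicate block 168, and the block with the correction 62. At D6 they went from 20 to 903 with DESeq2, 1194 with no filter and 5701 at that adjusted p. For the difference they went from 177 to 680 with DESeq2, 1007 with no filter and 552 with the block by subclone. Apart from the filter and the threshold themselves, the cause of the shifts in members called was not tested. The blocks share a replicate number that is not stated to pair KO with WT, so those values only show what the pairing would change. With 2 WT libraries, and members at a few reads on 1 side, precision in the H2A.X experiment is limited.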

Other observations

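The genes whose counts followed the members most closely were found separately in each experiment. In the H2A.X experiment, TBC1D10A had a Pearson correlation of 0.987 with the mean standardized profile of the fitted members over 10 libraries, followed by MYO1F (0.976), ZFP36L2 (0.975), TRNT1 (0.974) and ITGB4 (0.972). In the BAZ1B experiment, HSPG2 and PRKCB had 0.997 over 12 libraries, with TESPA1, SLC35E1 and SLC4A7 at 0.996 or above. These points share genotype and day groups, so the values describe the pattern alone. MYO1F, a myosin of myeloid cells, had 5.05 and 8.38 normalized counts in H2A.X WT at D0, 89.3 to 320.4 in KO, and none in KO at D6. TESPA1, named for a role in thymocytes, had 1988 to 2059 normalized counts in BAZ1B WT at D0 and 59.4 to 78.1 at D6.

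Of 19 genes called higher in H2A.X KO at D0 at the strict limit, BAZ1B WT was nearer to KO for 13 and to WT for 6. Of 3 called lower it was nearer to KO for 2. Across 13168 genes it was nearer to KO for 72.6%, and none of these counts was tested. Across 12017 genes with a length, the H2A.X KO effect had a Spearman correlation with transcript length of 0.54 at D0 and 0.60 at D6, and the BAZ1B effect had -0.03 and 0.05 across 12408 genes. The fitted members of the H2A.X experiment were short, with a median transcript of 1489.5 bases beside 3119 for all genes.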
